A study of Mus musculus with 12 samples.

Results

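Transcripts of 40 cell cycle and DNA replication genes were followed across 12 RNA sequencing libraries of mouse ear skin. The genes were taken by symbol from a list of proliferation genes, and all 40 were found among the 23234 symbols of the tables. They were divided by role into 15 genes of DNA replication, 3 regulators of the passage from G1 into S phase and 22 genes of mitosis. Expression is given in FPKM, which scales fragments by transcript length and library total. All 40 genes passed the filter on low values, at least 1 FPKM in at least 3 libraries, as did 14059 genes in all, and none of the 40 was listed at 0 in any library. The libraries formed 4 groups of 3. Wild type C57BL/6J mice were untreated (WT_untreated), received phosphate-buffered saline (WT_PBS), or received 100 mg of Oxarol, an ointment with 2.5 µg of the vitamin D3 analogue maxacalcitol, on the ear (WT_Oxarol). The last group, labelled VDRcKO_Oxarol here, received the same ointment and carried K5-Cre;VDR f/f, given in the labels as both strain and genotype. In it, Cre recombinase under the keratin 5 promoter acts on floxed alleles of the vitamin D receptor gene Vdr, so the deletion is aimed at basal keratinocytes and other cells with keratin 5 activity, and fibroblasts, vessels and immune cells keep the gene. Mice were 8 to 12 weeks old, and treated ears were taken 1 day after application. Saline is not the base of the ointment, and no group of the K5-Cre;VDR f/f genotype without ointment was analysed here, so in that genotype an effect of the ointment and one of the genotype cannot be told apart.

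Cells replicate their DNA in S phase and divide in mitosis. In skin most such cells lie in the basal layer, in the hair matrix and in the sebaceous gland. E2F factors, held in check by RB family proteins until cyclin-dependent kinases act, switch on replication genes at the G1/S boundary, and a later wave of mitosis genes depends on the MuvB complex with B-MYB and FOXM1, which acts through an element named CHR and often through CCAAT boxes bound by NF-Y. RNA of these genes in bulk skin follows the number of dividing cells and the RNA in each, and fewer such cells and less RNA per cell cannot be told apart in these data.

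The promoters of 5 members called in a comparison with WT_Oxarol (Pcna, Mcm6, Fen1, Mcm5 and Prc1) and of the widely used proliferation genes Mki67 and Top2a, which were not called, are shown to make these elements visible. They were read from RefSeq promoters of build GRCm38.p6, matched by symbol, while the expression tables were made on mm9. Each line gives the 150 bases before the start, 5′ to 3′ on the gene's strand, with capitals for matches on either strand to E2F (TTTCGCGC, TTTGGCGC or TTTCCCGC), CHR (TTTGAA or TTCGAA) or CCAAT. The Pcna window is chr2:132253181-132253330 (minus strand), Mcm6 is chr1:128359706-128359855 (minus strand), Fen1 is chr19:10204394-10204543 (minus strand) and Mcm5 is chr8:75109359-75109508 (plus strand). The Prc1 window is chr7:80294301-80294450 (plus strand), Mki67 is chr7:135716380-135716529 (minus strand) and Top2a is chr11:99024190-99024339 (minus strand). Fen1 and Prc1 have 2 listed starts, of which the first is shown.
Pcna: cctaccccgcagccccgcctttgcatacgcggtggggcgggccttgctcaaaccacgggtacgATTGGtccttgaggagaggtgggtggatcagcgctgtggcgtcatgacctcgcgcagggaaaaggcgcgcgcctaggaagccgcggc
Mcm6: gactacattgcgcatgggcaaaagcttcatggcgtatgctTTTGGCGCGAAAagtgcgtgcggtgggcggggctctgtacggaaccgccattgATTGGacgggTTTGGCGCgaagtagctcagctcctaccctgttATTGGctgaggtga
Fen1: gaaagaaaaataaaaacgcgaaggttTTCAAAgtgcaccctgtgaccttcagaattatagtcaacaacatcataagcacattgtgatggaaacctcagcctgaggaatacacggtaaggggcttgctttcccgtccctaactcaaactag
Mcm5: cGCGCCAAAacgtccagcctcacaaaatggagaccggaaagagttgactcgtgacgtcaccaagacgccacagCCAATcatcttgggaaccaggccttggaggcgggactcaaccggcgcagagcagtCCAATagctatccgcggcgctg
Prc1: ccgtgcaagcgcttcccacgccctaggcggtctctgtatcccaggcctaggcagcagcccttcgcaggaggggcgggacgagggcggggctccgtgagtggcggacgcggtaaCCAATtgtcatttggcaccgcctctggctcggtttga
Mki67: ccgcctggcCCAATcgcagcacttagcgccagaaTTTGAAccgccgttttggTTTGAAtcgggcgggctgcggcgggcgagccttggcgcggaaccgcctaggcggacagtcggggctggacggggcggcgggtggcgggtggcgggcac
Top2a: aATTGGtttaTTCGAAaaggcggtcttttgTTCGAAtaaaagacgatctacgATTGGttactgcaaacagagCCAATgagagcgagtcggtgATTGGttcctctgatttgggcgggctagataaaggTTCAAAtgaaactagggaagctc
In these windows Mcm6 and Mcm5 hold E2F and CCAAT letters, and in Mcm6 a pair of E2F matches on opposite strands overlap. The replication genes Pcna and Fen1 hold no E2F letters, with CCAAT in Pcna and CHR in Fen1. Of the mitosis genes, Mki67 and Top2a hold CHR and CCAAT letters, and Prc1 holds CCAAT alone. Outside its window, Prc1 has 1 CHR match in the wider search below. The full 250 bases before each listed start were also searched, and a gene was counted where any of its starts held the letters. E2F letters stood in 4 of the 13 replication promoters at hand (Mcm5, Mcm6, Mcm7 and Cdc6; 30.8%), in 1 of 18 mitosis promoters (Cdk1; 5.56%) and in 1.78% of all 27025 promoters. CHR letters stood in 3 of 13 replication promoters (23.1%), in 9 of 18 mitosis promoters (50%) and in 19.6% of all promoters. CCAAT stood in 8 of 13 (61.5%), in 16 of 18 (88.9%) and in 37.5%. A match describes letters, not a bound site. No promoter entry was at hand for Mcm4, Gins2, Ccnd1, Ccna2, Aurkb, Tpx2 and Foxm1.

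Each library had 17323 to 19478 symbols above 0, and log2 values correlated between libraries of a group at r = 0.931 to 0.966. Read numbers, estimated from the steps of the low values relative to WT_untreated replicate 1, were 0.321 to 0.473 in the VDRcKO_Oxarol libraries, 0.518 in WT_Oxarol replicate 3 and up to 1.69 in WT_Oxarol replicate 2. The step of WT_PBS replicate 3 could not be read. The labels carry no replicate numbers, and those used here follow the order in which the libraries of a group are listed. Library codes fell into 2 runs, which the labels do not call a batch. The first run held replicates 1 and 2 of each wild type group, and the second held replicate 3 of each wild type group and all 3 VDRcKO_Oxarol libraries. Gene-level Vdr stood at 22.2 ± 3.72 FPKM (SD, n = 3) in the libraries labelled VDRcKO_Oxarol against 7.20 ± 0.611 in WT_Oxarol. That goes against the direction of the label. The gene-level value includes undeleted exons and cells that lack Cre, and the cause of the higher value was not tested. Cyp24a1, a standard target gene of the receptor, ran with the labels, at 66.2, 599 and 458 FPKM in WT_Oxarol and 0, 0.271 and 0.175 in VDRcKO_Oxarol. Nothing in the labels ties replicates to separate animals, and the p-values below therefore reflect the spread between libraries, which may be only technical.

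The members were most abundant in ointment-treated wild type skin and least abundant in untreated skin. The group mean was highest in WT_Oxarol for 14 of 15 replication genes and 21 of 22 mitosis genes, and lowest in WT_untreated for 11 of 15 and 20 of 22. Summed over the 15 replication genes, FPKM were 215 to 281 in the WT_untreated libraries, 254 to 364 in WT_PBS, 344 to 374 in WT_Oxarol and 250 to 268 in VDRcKO_Oxarol. Over the 22 mitosis genes the sums were 93.0 to 169, 140 to 229, 187 to 268 and 149 to 173. Neighbouring groups overlapped in both sums, except that every VDRcKO_Oxarol library lay below every WT_Oxarol library.

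**Figure D1:**
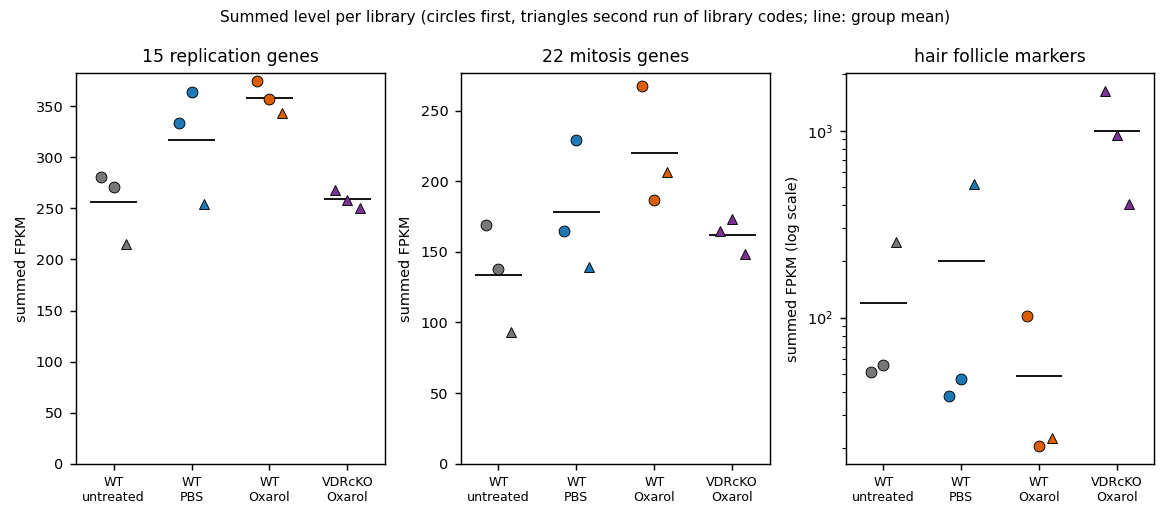
Summed FPKM per library for the replication genes, the mitosis genes and the hair follicle markers, by group, with circles for the first and triangles for the second run of library codes and a line at the group mean; the hair follicle panel has a log axis. The replication sum is 344 to 374 in WT_Oxarol and 250 to 268 in VDRcKO_Oxarol, and the hair follicle sum is 407 to 1632 in VDRcKO_Oxarol against at most 519 in wild type.

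**Figure D2:**
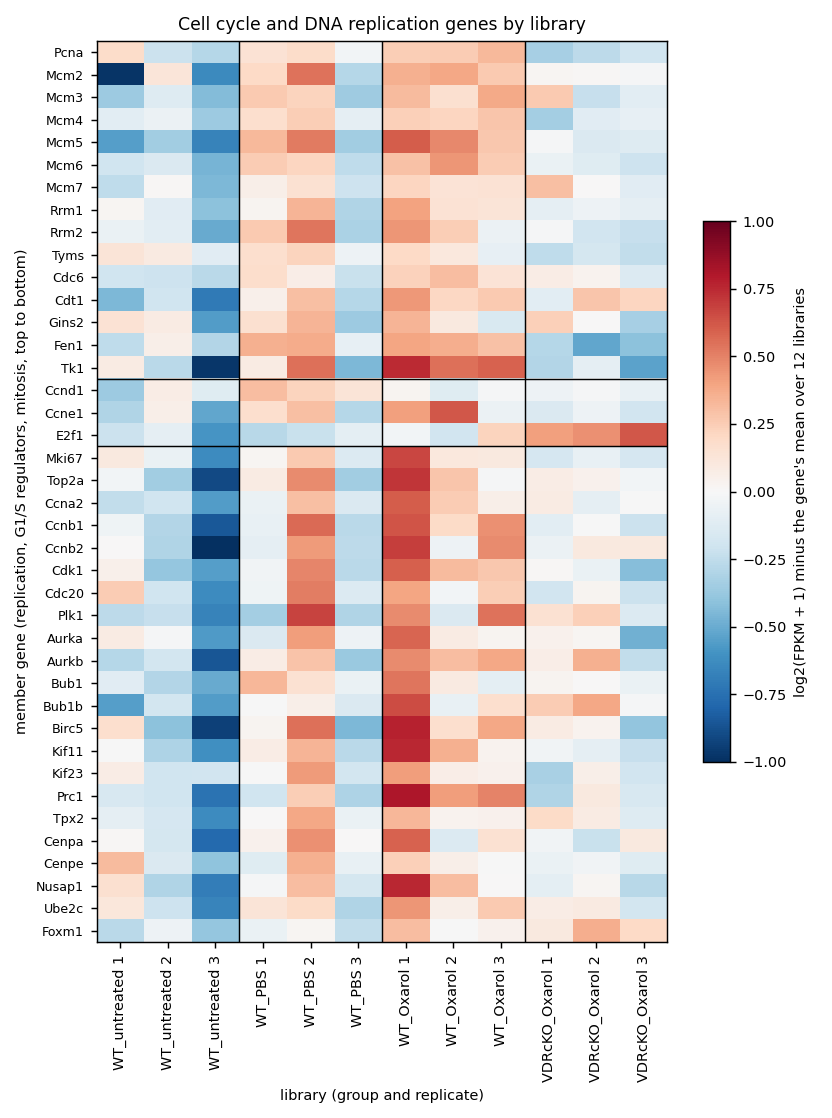
Each row is a member gene and each column a library; colour gives log2(FPKM + 1) minus the gene's mean over the 12 libraries. WT_Oxarol replicate 1 is the highest of the WT_Oxarol columns for 31 of 40 members, WT_PBS replicate 2 is the highest WT_PBS column for 34 of 40, and replicate 3 is the lowest library of WT_untreated for 37 of 40 members and of WT_PBS for 36 of 40.

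The first comparison asked how the genes differed between ointment and saline in wild type skin. No member passed the test (limma on log2(FPKM + 1), Benjamini-Hochberg adjusted p under 0.05 over all 14059 genes), where 0.306% of all genes did, and 2 members had an unadjusted p under 0.05 (7.45% of all genes). The differences were small and mostly in 1 direction: 38 of 40 members were above 0, against 52.1% of all genes, with a median of 0.23 on the log2 scale (0.18 for replication, 0.27 for mitosis, 0.01 for all genes). The replication median was 0.04 without WT_PBS replicate 3, and the mitosis median was 0.12 without WT_Oxarol replicate 1. All WT_Oxarol libraries lay above all WT_PBS libraries for 3 members, Pcna, Prc1 and Aurkb, where 7.53% of all genes did so, and below them for Ccnd1, where 8.36% did. The smallest adjusted p of a member was that of Prc1.

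Against untreated skin the difference was larger. With ointment, 2 members rose, the helicase subunit gene Mcm5 and the spindle midzone gene Prc1, where 0.989% of all genes were called higher, and none fell (0.32% of all genes). All 40 members were above 0 (49.6% of all genes), with medians of 0.45 for replication and 0.64 for mitosis, and 31 had an unadjusted p under 0.05 (17.1% of all genes, either direction). WT_Oxarol libraries lay wholly above WT_untreated libraries for 25 members, 13 of replication and 12 of mitosis, against 8.97% of all genes. The count was also 25 without WT_untreated replicate 3 (11.8% of all genes) and without WT_Oxarol replicate 1 (14.5%), and 28 in the first run of codes alone (16.6%). In the second run, with 1 library a group, all 40 members were higher in WT_Oxarol (50.1% of all genes). Both calls were lost in 14 of 21 alternatives, for example in the first run alone. With the run as a term in the fit, 11 members rose (Aurkb, Ccna2, Ccne1, Cdt1, Fen1, Kif11, Mcm5, Mcm6, Prc1, Tk1 and Top2a; 1.34% of all genes).

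Saline-treated skin lay between. No member passed against WT_untreated, where 0.00711% of all genes did, and 10 had an unadjusted p under 0.05 (9.33% of all genes). All 40 members were above 0, against 50.7% of all genes, with medians of 0.34 for replication and 0.36 for mitosis, which were 0.20 and 0.18 without WT_PBS replicate 2. Bub1, Bub1b, Ccna2, Ccnd1 and Tpx2 did not overlap between the groups (5.6% of all genes). The comparisons share libraries, so their directions are not independent.

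The comparison of genotypes under ointment showed the reverse direction. In the libraries labelled VDRcKO_Oxarol, 5 members were lower than in WT_Oxarol, the replication genes Pcna, Fen1, Mcm4 and Mcm6 and the mitosis gene Prc1, against 4.43% of all genes called lower, and none was called higher (8.71% of all genes). A further 33 members were below 0 without passing, so that 38 of 40 were below 0, while 60% of all genes were above 0. The median was -0.33 for replication and -0.33 for mitosis, against 0.08 for all genes. All 3 VDRcKO_Oxarol libraries lay below all WT_Oxarol libraries for 17 members (14.3% of all genes), 10 of replication and 7 of mitosis, and above them for E2f1 (27.9%). The count of 17 was the same without WT_Oxarol replicate 1 (19.6% of all genes). With the run of codes as a term, Fen1 alone passed, 0.711% of all genes were called lower, 11 of 40 members were above 0 (59.2% of all genes), and the medians were -0.15 for replication and -0.09 for mitosis. Leaving out 1 library gave 1 to 7 calls.

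**Figure D3:**
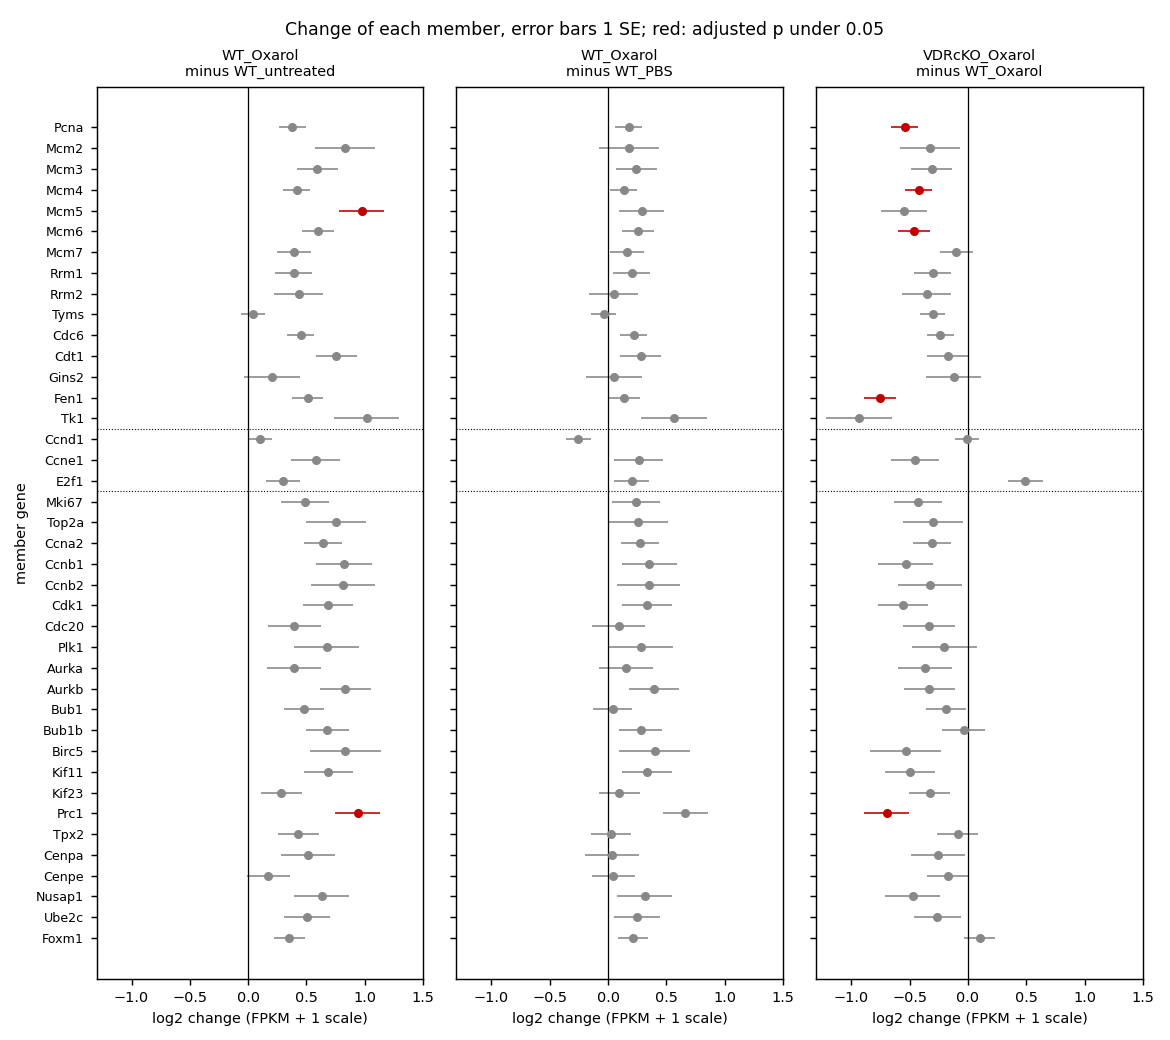
Change of each of the 40 members on the log2(FPKM + 1) scale in 3 comparisons, with bars of 1 SE and red for adjusted p under 0.05. All 40 points lie above 0 for WT_Oxarol against WT_untreated and 38 of 40 against WT_PBS, and 38 of 40 lie below 0 for VDRcKO_Oxarol against WT_Oxarol, 5 of them red.

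Among replication genes, Pcna encodes the sliding clamp that holds DNA polymerases on the template, and it was the most abundant member. Its FPKM were 87.5, 66.0 and 62.9 in WT_untreated, 84.9, 87.2 and 75.2 in WT_PBS, 91.3, 91.7 and 96.4 in WT_Oxarol, and 60.7, 63.8 and 66.7 in VDRcKO_Oxarol. The WT_Oxarol libraries were the 3 highest of all 12, and the VDRcKO_Oxarol libraries lay below every WT_PBS library too. The difference from WT_Oxarol was -0.54 ± 0.12 (SE, log2; limma adjusted p = 0.0194), a mean level of 0.684 of that in WT_Oxarol. The call was lost in 4 of 20 alternatives, among them the run of codes as a term.

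Fen1 encodes the flap endonuclease that trims Okazaki fragments. Its FPKM were 21.3, 26.7 and 20.7 in WT_untreated, 32.9, 33.3 and 24.1 in WT_PBS, 33.9, 33.2 and 31.5 in WT_Oxarol, and 20.8, 17.5 and 19.0 in VDRcKO_Oxarol. The VDRcKO_Oxarol libraries lay below all WT_PBS and WT_Oxarol libraries and overlapped the untreated ones only at their lower end. The difference from WT_Oxarol was -0.75 ± 0.13 (adjusted p = 0.0118) and passed in all 20 alternatives, with adjusted p from 0.00517 to 0.0474. Fen1 was also the only member called lower than in WT_PBS, by -0.62 ± 0.13 (adjusted p = 0.0164).

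The MCM proteins form the ring of the replicative helicase. Mcm6 stood at 28.6, 29.8 and 23.6 FPKM in WT_untreated, 39.6, 38.4 and 27.5 in WT_PBS, 40.6, 45.2 and 39.5 in WT_Oxarol, and 31.4, 30.2 and 28.4 in VDRcKO_Oxarol. Mcm4 stood at 12.9, 13.4 and 10.6, then 15.8, 16.7 and 13.0, then 16.6, 16.4 and 17.1, and 10.8, 12.8 and 13.1 in the same order of groups. For both, WT_Oxarol lay wholly above WT_untreated and VDRcKO_Oxarol wholly below WT_Oxarol, while replicate 3 of WT_PBS stood with the untreated libraries. The differences of VDRcKO_Oxarol from WT_Oxarol were -0.46 ± 0.14 for Mcm6 (adjusted p = 0.0495) and -0.42 ± 0.12 for Mcm4 (adjusted p = 0.0412). These calls lay near the threshold and were lost in 12 and 9 of 20 alternatives.

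Mcm5 stood at 5.32, 6.28 and 4.84 FPKM in WT_untreated, 10.6, 12.3 and 6.26 in WT_PBS, 13.1, 11.9 and 10.2 in WT_Oxarol, and 8.20, 7.36 and 7.45 in VDRcKO_Oxarol. WT_Oxarol and VDRcKO_Oxarol each lay wholly above WT_untreated and did not overlap each other. The rise of WT_Oxarol over WT_untreated was 0.97 ± 0.20 (adjusted p = 0.0410), and the difference between genotypes was -0.55 ± 0.20 (adjusted p = 0.0836). Mcm2, Mcm3 and Mcm7, the other helicase subunits, differed between genotypes by -0.33 ± 0.26, -0.31 ± 0.18 and -0.10 ± 0.14, none passing. The 3 lay wholly above WT_untreated in WT_Oxarol.

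Among genes of nucleotide supply, Tk1, the thymidine salvage kinase, had the largest genotype difference of all members, -0.93 ± 0.28, which just missed the threshold (adjusted p = 0.0520). Tk1 stood at 17.3, 13.4 and 7.79 FPKM in WT_untreated, 17.3, 24.4 and 11.7 in WT_PBS, 28.0, 24.3 and 25.0 in WT_Oxarol, and 13.1, 15.3 and 10.9 in VDRcKO_Oxarol. The mean in VDRcKO_Oxarol was 0.508 of that in WT_Oxarol, with no overlap. Tyms, which makes thymidylate de novo, behaved otherwise: its means were 18.1 ± 1.66 (SD, n = 3), 19.2 ± 1.98 and 18.7 ± 1.96 in the 3 wild type groups and 14.9 ± 0.523 in VDRcKO_Oxarol, wholly below each of them, with no call (adjusted p = 0.0788 against WT_Oxarol). The ribonucleotide reductase subunits Rrm1 and Rrm2 differed between genotypes by -0.30 ± 0.16 and -0.35 ± 0.21, not passing.

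Of the origin licensing and firing genes, Cdt1 and Cdc6 load the helicase and Gins2 is part of the active helicase. Cdt1 stood at 2.77, 3.48 and 2.15 FPKM in WT_untreated and 3.80, 5.24 and 4.98 in VDRcKO_Oxarol, a rise of 0.58 ± 0.18 (adjusted p = 0.0432) lost in 14 of 20 alternatives. In WT_Oxarol it stood at 5.96, 4.95 and 5.17, which overlaps VDRcKO_Oxarol. Cdc6 was near 1 FPKM, with 0.946 to 1.03 in WT_untreated and 1.57 to 1.91 in WT_Oxarol, and Gins2 overlapped between all groups.

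Among mitosis genes, Prc1, which bundles the microtubules of the spindle midzone, showed the clearest pattern. Its FPKM were 11.8, 11.4 and 7.53 in WT_untreated, 11.4, 15.8 and 10.5 in WT_PBS, 23.9, 18.0 and 19.1 in WT_Oxarol, and 10.6, 14.2 and 11.7 in VDRcKO_Oxarol. Each WT_Oxarol library exceeded all 9 others. The WT_Oxarol mean differed from WT_untreated by 0.94 ± 0.19 (adjusted p = 0.0467), from WT_PBS by 0.66 ± 0.19 (adjusted p = 0.298), and VDRcKO_Oxarol differed from WT_Oxarol by -0.70 ± 0.19 (adjusted p = 0.0423). The last call was lost in 9 of 20 alternatives, including each one that left out a WT_Oxarol library.

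Mki67 encodes the proliferation antigen Ki-67, a chromosome surface protein. Its FPKM were 3.85, 3.32 and 1.93 in WT_untreated, 3.59, 4.44 and 3.11 in WT_PBS, 6.18, 3.86 and 3.83 in WT_Oxarol, and 3.02, 3.30 and 3.02 in VDRcKO_Oxarol. The high WT_Oxarol value came from replicate 1, and VDRcKO_Oxarol lay below all 3 WT_Oxarol libraries and overlapped the other groups. No comparison of Mki67 passed (-0.43 ± 0.21 between genotypes, adjusted p = 0.180). Top2a, the topoisomerase that untangles sister chromatids, stood at 7.74, 6.00 and 3.78 in WT_untreated, 8.42, 11.4 and 6.01 in WT_PBS, 13.7, 9.83 and 7.83 in WT_Oxarol, and 8.40, 8.17 and 7.74 in VDRcKO_Oxarol. Between genotypes Top2a overlapped (-0.30 ± 0.26, adjusted p = 0.449), and with the run of codes as a term the difference turned to 0.11.

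The other 19 mitosis genes encode the mitotic kinases and cyclins (Cdk1, Ccna2, Ccnb1, Ccnb2, Plk1, Aurka, Aurkb), the checkpoint kinases Bub1 and Bub1b, the anaphase activators Cdc20 and Ube2c, spindle motors and binders (Kif11, Kif23, Tpx2, Nusap1), the centromere proteins Cenpa and Cenpe, Birc5 of the chromosomal passenger complex, and the factor Foxm1. None passed between genotypes under ointment, and the differences ran from -0.56 ± 0.22 for Cdk1 to 0.10 ± 0.13 for Foxm1. Cdk1, Ccnb1, Birc5, Kif11 and Cenpe did not overlap between VDRcKO_Oxarol and WT_Oxarol. Replicate 1 was the highest WT_Oxarol library for 21 of the 22 mitosis genes, and without it the mitosis median between genotypes was -0.19, against -0.33 with it.

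**Figure D4:**
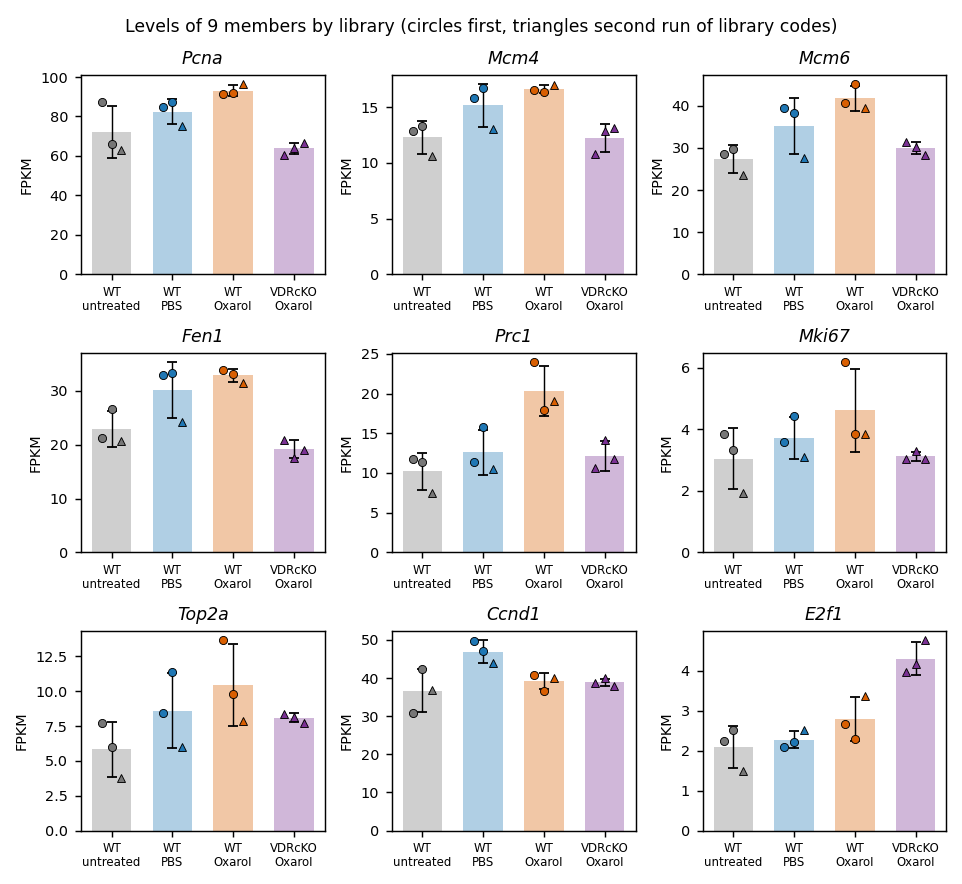
FPKM of 9 members in every library by group, with circles for the first and triangles for the second run of library codes, bars for the group mean and error bars of 1 SD (n = 3). Pcna, Fen1, Mcm4, Mcm6 and Prc1 lie lower in VDRcKO_Oxarol than in WT_Oxarol without overlap, while E2f1 is highest in VDRcKO_Oxarol at 3.97 to 4.75 FPKM.

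The 3 G1/S regulators differed among themselves. E2f1, the activator of S phase genes, stood at 2.23, 2.52 and 1.49 FPKM in WT_untreated, 2.09, 2.21 and 2.50 in WT_PBS, 2.67, 2.29 and 3.37 in WT_Oxarol, and 3.97, 4.16 and 4.75 in VDRcKO_Oxarol. All VDRcKO_Oxarol libraries exceeded all 9 wild type libraries. E2f1 rose over WT_untreated by 0.79 ± 0.15 (adjusted p = 0.00830, passing in all 19 alternatives that gave a value) and over WT_PBS by 0.70 ± 0.15 (adjusted p = 0.0149), while the difference from WT_Oxarol, 0.49 ± 0.15, just missed the threshold (adjusted p = 0.0515) and passed in 6 of 19 alternatives.

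Cyclin D1, encoded by Ccnd1, partners the kinases that inactivate RB. Ccnd1 stood at 30.9, 42.3 and 36.9 FPKM in WT_untreated, 49.8, 47.0 and 44.0 in WT_PBS, 40.9, 36.7 and 39.9 in WT_Oxarol, and 38.8, 39.9 and 38.0 in VDRcKO_Oxarol. WT_PBS was the highest group, without overlap with any other, and no Ccnd1 difference passed. Ccne1, the cyclin of S phase entry, averaged 2.07 ± 0.631 (SD, n = 3) in WT_untreated, 2.83 ± 0.769 in WT_PBS, 3.62 ± 1.06 in WT_Oxarol and 2.31 ± 0.165 in VDRcKO_Oxarol, with overlap between all neighbours in that order.

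Set against the wild type controls without ointment, the libraries labelled VDRcKO_Oxarol had median differences below 0 from WT_PBS and above 0 from WT_untreated. Against WT_PBS, E2f1 was higher (10.8% of all genes were called higher) and Fen1 lower (5.49% lower), and the other 38 members did not pass, with medians of -0.21 for replication and -0.13 for mitosis. Of the 40, 8 were above 0 (60.3% of all genes). E2f1 and Foxm1 lay wholly above WT_PBS (31% of all genes), and Pcna, Fen1, Tyms and Ccnd1 wholly below (16.4%). Against WT_untreated, 4 members were higher, E2f1, Cdt1, Bub1b and Foxm1, against 12.8% of all genes, and none was lower (6.2%), with medians of 0.09 for replication and 0.27 for mitosis. Here 35 of 40 were above 0 (58.8% of all genes), 9 lay wholly above WT_untreated (24.4%) and Tyms lay wholly below it (13.5%). The shares of members called higher and wholly above WT_untreated were slightly below those of all genes. Bub1b rose by 0.64 ± 0.19 (adjusted p = 0.0376) and Foxm1 by 0.45 ± 0.13 (adjusted p = 0.0375), calls lost in 11 of 19 and 6 of 14 alternatives. Foxm1 was low, at 0.364 to 0.725 FPKM in WT_untreated and 0.907 to 1.29 in VDRcKO_Oxarol. It passed the filter only through VDRcKO_Oxarol replicates 2 and 3 (1.29 and 1.04 FPKM) and WT_Oxarol replicate 1 (1.21 FPKM). The entry of Foxm1 into the test thus rested mostly on the group then called higher. Alternatives in which it failed the filter gave no value. With the run of codes as a term, the direction against WT_PBS turned: 32 of 40 members were above 0 (60.3% of all genes), with medians of 0.04 for replication and 0.16 for mitosis. No member then passed against WT_PBS (2.75% of all genes were called higher and 1.6% lower), and 7 rose against WT_untreated (Aurkb, Ccna2, Cdt1, E2f1, Foxm1, Mcm5 and Top2a; 4.98% of all genes), with medians of 0.42 and 0.52. Without WT_untreated replicate 3 the replication median against that group turned to -0.03 and the mitosis median was 0.05, and the mitosis median to 0.07 against WT_PBS without its replicate 2.

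Within the second run of library codes, which holds all VDRcKO_Oxarol libraries, 1 library stood for each wild type group, so no test was made. All 3 VDRcKO_Oxarol libraries lay below WT_Oxarol replicate 3 for 24 of 40 members (27.7% of all genes), 11 of replication and 13 of mitosis, and above it for 3 (42%). They lay above WT_untreated replicate 3 for 36 of 40 members (43.6% of all genes) and below it for 1 (27.3%). They lay above WT_PBS replicate 3 for 25 (42.8%) and below it for 4 (25.6%).

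Markers of other cells moved with the same groups. Of the hair follicle markers, 19 of 20 were in the files, and their summed level was 50.9 to 255 FPKM in WT_untreated, 38.3 to 519 in WT_PBS, 20.6 to 102 in WT_Oxarol and 407 to 1632 in VDRcKO_Oxarol. Of 18 tested, 15 were higher in VDRcKO_Oxarol than in WT_Oxarol, where 8.71% of all genes were, and Shh was listed at 0 in 8 libraries. The highest wild type sums, 255 and 519, were those of replicate 3 of WT_untreated and WT_PBS, the libraries with the lowest values for most members. Under ointment, 1 library of each group ran the other way. WT_Oxarol replicate 1 had the highest hair follicle sum of its group, 102, and was the highest for 31 of 40 members. VDRcKO_Oxarol replicate 3 had the lowest of its group, 407, and was the lowest for 25 of 40. The remaining libraries showed no such order. VDRcKO_Oxarol replicates 1 and 2 had hair follicle sums of 1632 and 951 and were the highest for 17 and 19 members. WT_Oxarol replicates 2 and 3 had sums of 20.6 and 22.8 and were the lowest for 19 and 20. Of 12 macrophage and monocyte markers, 5 were higher in VDRcKO_Oxarol than in WT_Oxarol, and their sum was 725 to 951 against 412 to 533. Of the T cell markers, 2 of 11 tested were higher, with sums of 101 to 116 against 71.0 to 85.1. B cell markers summed to 0.754 to 2.25 FPKM in any library, with Pax5 at 0 in all 12. Fibroblast, cartilage and endothelial markers had 3, 5 and 2 genes called higher in VDRcKO_Oxarol than in WT_Oxarol and none lower, with sums of 3344 to 4037 against 2226 to 2872, 163 to 173 against 73.6 to 111, and 54.3 to 58.4 against 38.4 to 46.0 FPKM. None of the 10 basal keratinocyte markers passed between genotypes under ointment, where 5 were above 0 and 5 below. In VDRcKO_Oxarol 4 of the 10 lay wholly above WT_Oxarol (27.9% of all genes) and 1 wholly below (14.3%). The sums of the 10 were 3026 to 3275 in VDRcKO_Oxarol and 2849 to 4050 in WT_Oxarol, against 3717 to 4507 in WT_untreated. Of 10 suprabasal markers, Ivl and Sbsn were called higher in VDRcKO_Oxarol than in WT_Oxarol, where 5 of the 10 were above 0 and 5 below. Krt1 was called higher in WT_Oxarol than in WT_PBS, where 3 of the 10 were above 0 and 7 below. The basal keratin gene Krt15 was lower in WT_Oxarol than in WT_untreated (-1.18 ± 0.18, adjusted p = 0.0143), the only basal marker called there. Of the 10 basal markers, 5 were above 0 and 5 below in that comparison, with a median of -0.005. No keratinocyte marker was listed at 0 in any library. None of the 10 sebaceous gland markers passed between genotypes under ointment, with 4 above 0 and 6 below. Their sums were 2937 to 3959 FPKM in WT_untreated, 1509 to 3305 in WT_PBS, 3545 to 4868 in WT_Oxarol and 3392 to 3698 in VDRcKO_Oxarol. The part of these cells in the members' differences was not tested.

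Related genes beyond the 40 were counted from lists written with earlier results of these data known. Of 48 other replication genes, 46 were tested. Between VDRcKO_Oxarol and WT_Oxarol 43 of 46 were below 0, where 60% of all genes were above 0 (median -0.30, all genes 0.08). In VDRcKO_Oxarol 7 of the 46 were called lower than in WT_Oxarol (4.43% of all genes were). Those with the smallest adjusted p were Brca2 of recombination repair (-0.60 ± 0.13, adjusted p = 0.0207), Tipin of the fork protection complex (-0.50 ± 0.12, adjusted p = 0.0244), Rpa2 of the single-strand binding protein RPA (-0.55 ± 0.13, adjusted p = 0.0247) and Hells, a chromatin remodeller (-0.71 ± 0.18, adjusted p = 0.0304). Of 57 other mitosis genes, 2 were lower, a share near that of all genes, the condensin subunit gene Smc4 (-0.52 ± 0.13, adjusted p = 0.0345) and the motor gene Kifc1 (-0.53 ± 0.16, adjusted p = 0.0490), with 56 of 57 below 0 and a median of -0.33. Each of these 6 calls was lost with the run of codes as a term, and they were lost in 4 of 19 alternatives for Brca2, 5, 7, 6 and 8 of 20 for Tipin, Rpa2, Hells and Smc4, and 13 of 19 for Kifc1. Between WT_Oxarol and WT_PBS no gene of either list passed (0.306% of all genes did), with 44 of 46 and 53 of 57 above 0 (52.1% of all genes).

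Of 19 further G1/S cyclins, kinases and factors, 1 was called higher in VDRcKO_Oxarol than in WT_Oxarol (8.71% of all genes) and 1 lower (4.43%). Neither count stood out from the share over all genes. The MYC family gene Mycl1 was higher (0.83 ± 0.18, adjusted p = 0.0199) and the cyclin gene Ccne2 lower (-0.51 ± 0.14, adjusted p = 0.0378). Both calls were lost with the run of codes as a term, and in 4 of 20 and 9 of 19 alternatives. Against WT_untreated 4 of the 19 were higher in VDRcKO_Oxarol (12.8% of all genes) and 1 lower (6.2%). Of 23 cell cycle brakes, inhibitors and RB family genes among them, 22 were tested and none passed between genotypes under ointment. Of the 22, 16 were above 0 (60% of all genes), with a median of 0.24 (0.08 for all genes). In VDRcKO_Oxarol 7 of the 22 were higher than in WT_PBS (10.8% of all genes) and 2 higher than in WT_untreated (12.8%).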

How the data were processed

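Ear skin RNA was sequenced after NEBNext Ultra library preparation, per the labels' protocols. TopHat2 2.0.8, Bowtie2 2.1.0, Cufflinks 2.1.1 and build mm9 are named, per the submitters' processing notes, and the role and settings of each tool are not stated there. A deposited table has 1 value per symbol, taken as the FPKM the authors deposited; the file headers name no unit, and it was inferred from Cufflinks and the values. Read counts were not used. No source used here gives strandedness, and reads of overlapping or antisense genes may be mixed.

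Values were tested as log2(FPKM + 1), which understates changes of low genes, with limma 3.58.1 in R 4.3.3 (intensity trend, a joint fit of the 4 groups with 8 residual degrees of freedom). Genes needed at least 1 FPKM in at least 3 of 12 libraries, and p-values of the 6 comparisons were adjusted by Benjamini-Hochberg over all 14059 genes at 0.05. A value after ± is limma's moderated standard error, or SD where so named. The script was tested on simulated data.

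The members and lists were chosen with earlier results of these data known. Members called in either ointment comparison and 5 preset members are given by library, and up to 4 called genes of each further list are named by smallest adjusted p; Mcm5, Tk1, Cdt1, Tyms, Bub1b, Foxm1 and the genes without overlap were added after their values were seen. Other normalizations, filters, pseudocounts, fits and left-out libraries were tried as alternatives. Plots were made in Python 3.11.15 (matplotlib 3.10.9).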

Additional observations from a re-analysis of the deposited data

How the results depend on the processing

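The labels carry no replicate numbers that could pair libraries across groups, so no paired analysis was made. The run of library codes was entered as a term instead, as an alternative. The number of members called moved with the processing. For VDRcKO_Oxarol against WT_Oxarol it was 5, and 2 with no filter, 8 with quantile normalization, 11 in a fit of only the 2 groups compared and 1 with the library code run as a term. For WT_Oxarol against WT_untreated it was 2, and 0 with no filter, with quantile normalization, with the 2 groups alone and in the first run alone, 1 with median-of-ratios scaling and 11 with the run as a term. For VDRcKO_Oxarol against WT_PBS it was 2, and 4 with quantile normalization, 5 with median-of-ratios scaling, 5 with the 2 groups alone and 0 with the run as a term. For VDRcKO_Oxarol against WT_untreated it was 4, and 2 with no filter, 0 with a filter of 5 FPKM, 2 with quantile normalization, 1 with median-of-ratios scaling, 1 with the 2 groups alone and 7 with the run as a term. Leaving out 1 library gave 1 to 7, 0 to 3, 0 to 5 and 1 to 5 calls in these comparisons, and 0 to 0 in the other 2. With the run as a term, the mitosis median of VDRcKO_Oxarol against WT_PBS was 0.16 and the replication median against WT_untreated 0.42, and 9 of 40 members turned sign between genotypes, 24 of 40 against WT_PBS and 2 of 40 against WT_untreated. Among the members given by library, Top2a between genotypes was 0.11 with the run as a term, Ccnd1 between genotypes was 0.00608 with the run as a term, 0.0216 without WT_Oxarol replicate 1, 0.00504 without WT_Oxarol replicate 3 and 0.00749 without VDRcKO_Oxarol replicate 3 (-0.0532 to 0.0216 over the left-out libraries), and Fen1 with ointment against saline was -0.0109 without WT_PBS replicate 3 (-0.0109 to 0.214 over the left-out libraries). The cause was not tested. The first run alone gives no value for VDRcKO_Oxarol. Counts of members without overlap were recomputed with libraries left out after seeing the data: they ran from 25 to 35 for WT_Oxarol above WT_untreated and from 17 to 25 for VDRcKO_Oxarol below WT_Oxarol. Depth is known only as relative read numbers, and members near 1 FPKM (Foxm1, Bub1, Cenpe, Cdc6) rest on the fewest reads.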
